A study of Homo sapiens with 4 samples.

Results

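The RNA of T24 cells and of UM-UC-3 cells was compared after both lines had been kept for 48 h in 140 µM OICR-9429, and each difference between the lines was set beside the difference between their DMSO controls. Both lines are established and derive from human bladder cancers. OICR-9429 occupies the pocket of WDR5 that binds MLL1, a methyltransferase of histone H3 lysine 4. The comparison used the 2 treated libraries of 4 in the series, 1 library for each line and condition, and the other 2 libraries, from DMSO-treated cells of each line, served as the reference. Of 31319 genes measured, 13313 had an FPKM (fragments scaled by the length of the gene and the reads of the library) of at least 1 in at least 1 treated library and entered the comparison. Both media held fetal bovine serum, but T24 was grown in RPMI-1640 and UM-UC-3 in DMEM, so line and medium cannot be told apart. The dose is that of the labels, while the column headings of the treated values carry 125 with no unit or explanation.

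A gene was called different between the lines when FPKM + 0.5 differed at least 2-fold. No test stands behind this size rule, because each side held 1 library and no replicate error exists. Log2 differences are T24 minus UM-UC-3 on the log2(FPKM + 0.5) scale throughout, so a positive value means more RNA in T24, and the scale understates differences of low genes. The shift of a gene is its log2 difference under OICR-9429 minus that in DMSO, and a difference was taken as moved when the shift was at least 1 in size. Line differences called in both conditions in 1 direction were kept (shift below that size), larger or smaller. Those called only under the compound with a sufficient shift had opened, and those called only in DMSO with a sufficient shift were absent. Those called in opposite directions had turned, and those called in 1 condition without such a shift lay near the threshold. A call needed at least 1 FPKM in 1 library of the pair, so absent differences include genes under that level in both treated libraries. With no FPKM minimum 836 of the 910 absent differences were still absent. The counts below rest on these classes, and a level in bulk RNA cannot tell fewer cells from less RNA per cell.

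The genes that follow belong to systems with known wiring. In the integrated stress response, kinases that sense misfolded proteins, missing amino acids or viral RNA raise translation of the factor ATF4, which switches on genes for amino acid supply and, if stress lasts, for cell death. Misfolded proteins in the endoplasmic reticulum also switch on chaperones through ATF6 and XBP1. Interferon-stimulated genes are antiviral genes switched on by interferon signalling, and carcinoma lines differ widely in how far they express them without added interferon.

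Under OICR-9429, 4488 of the 13313 genes (33.7%) were called different between the lines, against 3803 of 13393 (28.4%) in DMSO. Treated UM-UC-3 was higher for 2823 genes (21.2%) and treated T24 for 1665 (12.5%), whereas in DMSO 1811 genes (13.5%) were higher in UM-UC-3 and 1992 (14.9%) in T24. Over 14546 genes at the minimum in any library, 1649 differences (11.3%) were kept, 194 (1.33%) were larger, 214 (1.47%) smaller, 1267 (8.71%) had opened, 910 (6.26%) were absent, 54 (0.371%) had turned and 1892 (13.0%) lay near the threshold. By direction, 0.536% of the genes had larger differences towards T24 and 0.797% towards UM-UC-3, 0.660% and 0.811% smaller ones, 2.17% and 6.54% opened ones, 3.62% and 2.64% absent ones, 0.110% and 0.261% turned ones, 5.55% and 5.78% kept ones, and 5.49% and 7.52% lay near the threshold, with absent differences placed by their direction in DMSO. Of the 1267 opened differences, 952 were towards UM-UC-3, and for 565 of those 952 the UM-UC-3 RNA was at least 2-fold higher under the compound than in DMSO, against 192 for which the T24 RNA was at least 2-fold lower. Of the 1992 genes higher in T24 in DMSO, 982 (49.3%) were still called higher in T24 under the compound, 972 were not called and 38 were higher in UM-UC-3. Of the 1811 higher in UM-UC-3 in DMSO, 1075 (59.4%) were still higher there, 720 were not called and 16 were higher in T24. Across 12160 genes at the minimum in both conditions, the differences correlated with a Pearson coefficient of 0.80 and a Spearman coefficient of 0.68. The pairs share no library but share the lines, and genes are not independent replicates.

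The direction of these counts depends on scaling. The median log2 difference over the 13313 genes was -0.22 under OICR-9429, and 0.03 over the 13393 genes in DMSO, so the treated pair as a whole was tilted towards UM-UC-3. With TMM factors (the trimmed mean of M values, a scaling that centres most genes) the treated median was 0.01, and T24 held 49.4% of the calls in place of 37.1%. UM-UC-3 held 57.7% of the opened differences in place of 75.1%. Which line was ahead changed for some classes. Towards T24 and UM-UC-3, kept differences numbered 808 and 841 as deposited and 911 and 734 with TMM factors, larger ones 78 and 116 against 107 and 91, and absent ones 526 and 384 against 443 and 449. Single genes and lists below are to be read against that tilt and against the shares of all genes called in each direction.

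**Figure D1:**
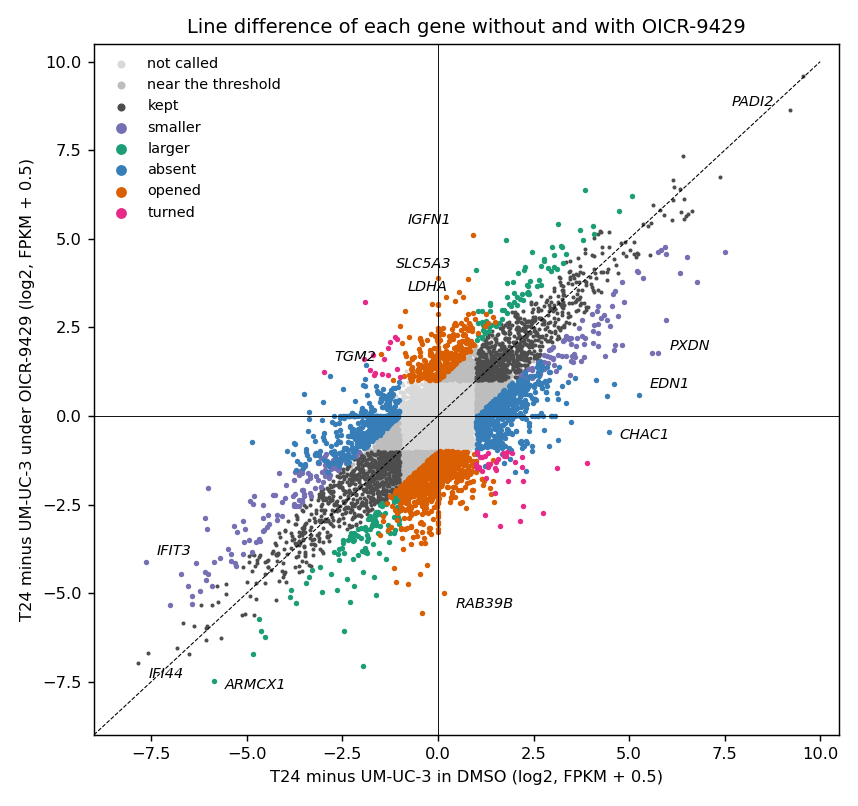
Each point is a gene; the horizontal axis is its log2 difference between the lines in DMSO and the vertical axis that under OICR-9429 (T24 minus UM-UC-3, FPKM + 0.5), coloured by class. Points on the dashed line had the same difference in both conditions, and MT1E lay close to it (9.56 and 9.59), while the opened genes at the lower centre, such as RAB39B, outnumber those at the upper centre, such as LDHA and SLC5A3 (952 against 315, or 652 against 478 with TMM factors).

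Depth did not separate the libraries, with totals of 28209432 to 29335051 reads. The 10 most abundant genes took 5.35 to 8.65% of the reads and mitochondrial genes 3.28 to 4.55%. Cell type markers were checked: 5 fibroblast, 4 endothelial and 5 leukocyte markers were all below 1 FPKM in every library, with summed levels of at most 0.445, 0.327 and 0.685 FPKM. Of longer lists, 1 of 9 fibroblast, 2 of 8 endothelial and 0 of 5 leukocyte genes reached 1 FPKM in any library. The 9 markers of the luminal urothelium summed to 6.92 and 9.56 FPKM in T24 in DMSO and under the compound, and in UM-UC-3 to 2.69 and 6.96 FPKM. Among the 7 basal markers only CD44 reached 1 FPKM in any library, while of a longer basal list 6 of 15 genes did, EGFR and ITGA6 among them, and 5 of 5 were higher in treated T24. At most 2 of the 9 luminal markers reached 1 FPKM in any library. A longer luminal list had 10 of 19 genes at that level, KRT18 and ERBB2 among them. Of its 9 genes at the minimum under the compound, 5 were called towards T24 and 1 towards UM-UC-3. With TMM factors these counts were 6 and 1, and in DMSO they were 4 and 1 of 9. A lean to T24 was therefore not particular to the basal genes. The 5 epithelial markers summed to 98.0 FPKM in treated T24 and 30.0 in treated UM-UC-3, against 165 and 107 in DMSO. The most abundant of them, the keratin KRT18, had 91.3 FPKM in T24 and 56.5 in UM-UC-3 in DMSO, and 68.4 and 15.3 under OICR-9429, a difference that had opened.

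The largest line differences under the compound were nearly all present in DMSO. Among genes with at least 100 reads in the higher treated library, MT1E, a metallothionein whose reads may be shared with its near-identical relatives, led the genes higher in T24. MT1E had 377.5 FPKM in T24 and 0 in UM-UC-3 in DMSO, and 384 and 0 under OICR-9429, at least 3925-fold more with the floor set at 3 reads per library. PADI2, an enzyme that converts arginine to citrulline in proteins, had 301 FPKM in T24 and 0.0118 in UM-UC-3 in DMSO, and 200 and 0 under OICR-9429, a difference of at least 11643-fold on the same floor. PAX8, a paired-box transcription factor of kidney and thyroid development, had 46.9 FPKM in T24 and 0.0575 in UM-UC-3 in DMSO, and 107 and 0.171 under OICR-9429, kept as deposited and larger with TMM factors, with a ratio of 627 under the compound (95% interval 455 to 891, exact and covering counting error only). These genes were at or near 0 in both UM-UC-3 libraries. LDOC1, QPRT (an enzyme of NAD synthesis) and NPNT (a matrix ligand of integrins) had 52.8, 49.6 and 42.1 FPKM in treated T24 and 0 reads in treated UM-UC-3, and in DMSO 83.2, 36.4 and 40.1 FPKM in T24.

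In the other direction, ARMCX1, a protein of mitochondrial transport, had 0 FPKM in T24 and 28.3 in UM-UC-3 in DMSO, and 0 and 89.5 under OICR-9429. With no read in T24, the difference was at least 1873-fold under the compound against at least 583-fold in DMSO, and it was classed as larger. UCHL1, a neuronal deubiquitinase, had 0 FPKM in T24 and 45.3 in UM-UC-3 in DMSO, and 0.0299 and 55.1 under OICR-9429, and IL13RA2, a decoy receptor for interleukin 13, had 0.107 FPKM in T24 and 68.6 in UM-UC-3 in DMSO, and 0.189 and 64.1 under OICR-9429. UCHL1 had 2 reads in treated T24, a ratio of 1844 (interval 510.1 to 15232). Both differences were kept. LINC01029, a long noncoding RNA, had 0 FPKM in T24 and 95.9 in UM-UC-3 in DMSO, and 0 and 51.3 under OICR-9429, and NFE4, a factor of fetal globin expression, had 0.0323 FPKM in T24 and 14.8 in UM-UC-3 in DMSO, and 0 and 51.7 under OICR-9429. TCEAL8, a relative of elongation factor A, had 0 FPKM in T24 and 32.8 in UM-UC-3 in DMSO, and 0.0837 and 46.5 under OICR-9429 (3 reads in treated T24, ratio 555, interval 189.6 to 2695). CTA-384D8.31, a transcript with no entry in the annotation used, stood apart with 0.441 FPKM in T24 and 3.16 in UM-UC-3 in DMSO, and 0 and 65.9 under OICR-9429. Its difference went from -1.96 to -7.05.

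**Figure D2:**
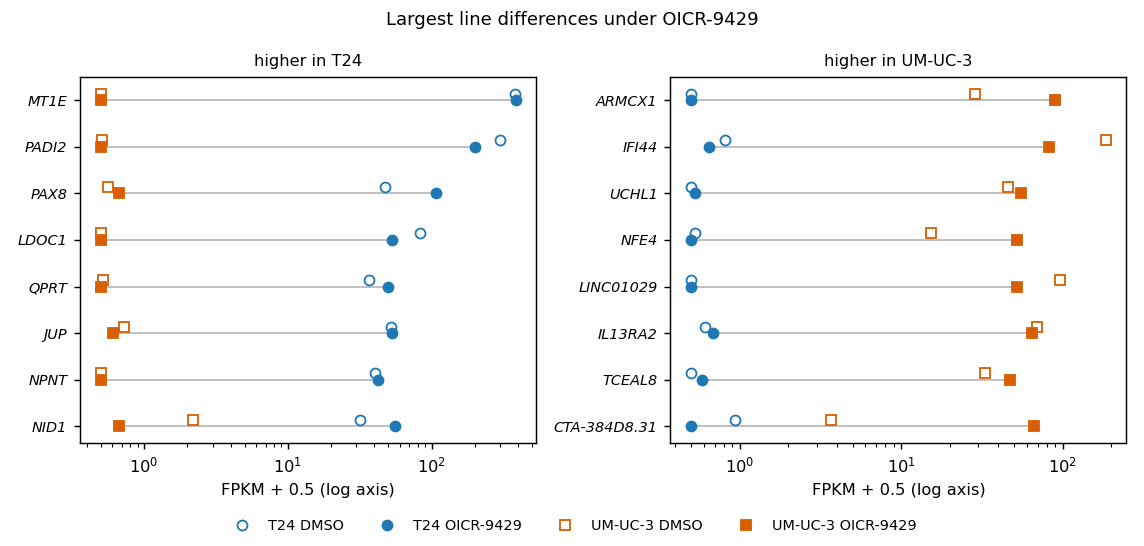
FPKM + 0.5 on a log axis of the 8 largest differences in each direction under OICR-9429, in T24 (circles) and UM-UC-3 (squares), DMSO open and OICR-9429 filled; the grey line joins the 2 treated libraries. Open and filled symbols of a line lie close together for most genes, with NID1, ARMCX1, NFE4 and CTA-384D8.31 wider apart under the compound.

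Among lists with at least 10 members at the minimum, the interferon-stimulated genes had the widest median difference towards UM-UC-3, and under the compound it was narrower but still present. Of 36 members at the minimum in a treated library, 29 (80.6%) were higher in UM-UC-3 and 1 in T24, against 21.2% and 12.5% of all genes. In DMSO 36 of 40 were higher in UM-UC-3 and none in T24. The median log2 difference was -3.46 in DMSO and -2.35 under OICR-9429, beside 0.03 and -0.22 over all genes. By class, 18 were kept, 10 smaller, 8 absent and 1 opened, and none was larger. With TMM factors 28 members were higher in treated UM-UC-3.

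IFI6, an antiviral and antiapoptotic membrane protein, was the most abundant member, with 10.53 FPKM in T24 and 721 in UM-UC-3 in DMSO, and 4.49 and 304 under OICR-9429. Both lines had less IFI6 under the compound, and the difference was kept at -5.93 (-6.03 in DMSO). IFITM3, which blocks the entry of viruses through endosomes, had 21.7 FPKM in T24 and 408 in UM-UC-3 in DMSO, and 16.1 and 251 under OICR-9429. UM-UC-3 was higher than T24 in both conditions for both of these. IFI44 had 0.306 FPKM in T24 and 184 in UM-UC-3 in DMSO, and 0.151 and 81.6 under OICR-9429, a ratio of 542 between the treated libraries (interval 285 to 1186). Others had a smaller difference. IFIT3, which binds viral RNA with its partner IFIT1, had 0.696 FPKM in T24 and 238 in UM-UC-3 in DMSO, and 1.51 and 34.4 under OICR-9429, and its difference went from -7.64 to -4.12. OAS2, which makes the second messenger that activates RNase L, had 0.0111 FPKM in T24 and 40.5 in UM-UC-3 in DMSO, and 0.0327 and 8.97 under OICR-9429, differences of -6.33 and -4.15. In both, treated T24 stayed below 2 FPKM and treated UM-UC-3 was below its control. Treated T24 was above its own control for IFIT3, while OAS2 lay too near 0 in both T24 libraries for a change to be read.

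DDX58, the gene of the RNA sensor RIG-I, had 17.0 FPKM in T24 and 115 in UM-UC-3 in DMSO, and 16.5 and 33.0 under OICR-9429, just under the size of a call at -0.98. MX2, a dynamin-like antiviral protein, had no read in T24 and 6.08 FPKM in UM-UC-3 in DMSO, against 0.940 under the compound. That level is below the minimum of a call, so its difference could not be called there. GBP3, a guanylate-binding protein, was the only member higher in treated T24, with 5.44 FPKM in T24 and 3.89 in UM-UC-3 in DMSO, and 4.19 and 1.20 under OICR-9429. The averaged line difference, with treatment as a covariate in limma, gave IFI44 -7.41 (SE 0.33, adjusted p = 0.0017, Benjamini-Hochberg) and IFIT3 -5.88 (SE 0.78, adjusted p = 0.008). IFI44 met the FPKM minimum of that test only through the UM-UC-3 libraries.

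A short motif recurs in the promoters of these genes and is printed for IFIT3, whose line difference shrank most in the list. The windows run from 250 bases before to 50 after the start of a transcript (RefSeq, GRCh38.p14), and capitals mark TTTC followed after 2 bases by TTTC, the core of the interferon-stimulated response element, searched on both strands. It was found in 24 of the 32 list members with a window (75%). The share was 3.88% of the 8676 genes compared here that had a window, and 3.57% of 35116 windows of all genes. A match is a description of the letters and not a bound site, and this motif was chosen after the values were seen. IFIT3 lies on the plus strand at chr10:89327747-89328046.
IFIT3: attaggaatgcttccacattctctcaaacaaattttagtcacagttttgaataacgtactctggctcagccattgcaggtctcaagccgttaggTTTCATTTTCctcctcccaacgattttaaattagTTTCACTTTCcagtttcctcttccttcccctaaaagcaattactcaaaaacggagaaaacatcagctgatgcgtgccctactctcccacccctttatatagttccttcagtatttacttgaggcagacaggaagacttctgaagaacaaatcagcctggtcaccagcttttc

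Genes of MHC class I presentation, many of them under interferon control, leaned to UM-UC-3 in DMSO and not under the compound. In DMSO 8 of 20 were higher in UM-UC-3 and none in T24, and under the compound 4 of 19 were higher in UM-UC-3 and 2 in T24, close to the 21.2% and 12.5% of all genes. HLA-C, a presenting molecule whose reads may be shared with its near-identical relatives, kept its difference, with 14.6 FPKM in T24 and 232 in UM-UC-3 in DMSO, and 11.7 and 180.3 under OICR-9429. The tapasin gene TAPBP, which loads peptides, had 69.3 FPKM in T24 and 35.1 in UM-UC-3 in DMSO, and 88.2 and 22.6 under OICR-9429 and was higher in T24 in both, by 0.97 and 1.94. It lay near the threshold as deposited and had opened with TMM factors. NLRC5, an activator of MHC class I genes, had 0.302 FPKM in T24 and 4.40 in UM-UC-3 in DMSO, and 0.768 and 1.56 under OICR-9429, and its difference was absent under the compound.

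The integrated stress response list leaned to T24 in DMSO and not under the compound. In DMSO 17 of 47 members were higher in T24 and 3 in UM-UC-3. Under OICR-9429 14 of 50 (28%) were higher in UM-UC-3 and 4 (8%) in T24, or 10 and 4 with TMM factors, near the 21.2% and 12.5% of all genes. The DMSO shares of all genes were 13.5% towards UM-UC-3 and 14.9% towards T24. The median log2 difference was 0.59 in DMSO and -0.33 under the compound, close to the median of all treated genes (-0.22). By class 11 differences were absent, 7 had opened, 4 were kept, 1 smaller, 1 larger and 1 turned.

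ATF4, the transcription factor of the response, had 288 FPKM in T24 and 169 in UM-UC-3 in DMSO, and 519 and 445 under OICR-9429, and the treated libraries differed by 1.17-fold. CHAC1, an enzyme that degrades glutathione, had 51.5 FPKM in T24 and 1.84 in UM-UC-3 in DMSO, and 31.3 and 43.1 under OICR-9429. Its DMSO difference of 4.47 was absent under the compound (-0.46), as UM-UC-3 stood 18.6-fold higher with treatment while T24 was 1.63-fold lower. ATF3, a stress-induced repressor, had 18.4 FPKM in T24 and 1.34 in UM-UC-3 in DMSO, and 27.4 and 21.2 under OICR-9429, and ASNS, asparagine synthetase, 72.1 FPKM in T24 and 32.8 in UM-UC-3 in DMSO, and 65.7 and 123 under OICR-9429. All of these were lowest in the DMSO library of UM-UC-3, and their treated levels lay within 2-fold of each other.

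Other members ended higher in UM-UC-3. TRIB3, a pseudokinase that dampens AKT and the response itself, had 42.99 FPKM in T24 and 22.5 in UM-UC-3 in DMSO, and 124 and 445 under OICR-9429, a difference of -1.84 that had opened. DDIT3, which encodes the factor CHOP of stress-induced cell death, had 10.4 FPKM in T24 and 6.13 in UM-UC-3 in DMSO, and 27.5 and 112 under OICR-9429, a difference of -2.00. SESN2, which restrains mTORC1, had 32.2 FPKM in T24 and 9.33 in UM-UC-3 in DMSO, and 41.1 and 88.5 under OICR-9429. Its difference turned from 1.74 to -1.10, but under TMM factors it was absent rather than turned. RAB39B, a small GTPase of vesicle traffic, had 1.33 FPKM in T24 and 1.13 in UM-UC-3 in DMSO, and 0.836 and 42.4 under OICR-9429, the largest shift of the list at -5.17.

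The most abundant member and a secreted one stayed higher in T24. SLC38A2, an amino acid transporter, had 220.2 FPKM in T24 and 99.7 in UM-UC-3 in DMSO, and 521 and 209 under OICR-9429, a kept difference of 1.32. GDF15, a cytokine released by stressed cells, had 109 FPKM in T24 and 0.102 in UM-UC-3 in DMSO, and 398 and 15.7 under OICR-9429. Its RNA was higher with the compound in both lines, and the difference shrank from 7.51 to 4.62. The averaged difference of GDF15 was 6.06 (SE 0.65, adjusted p = 0.0044 from limma), whereas CHAC1 had an adjusted p of 0.25 there.

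Endoplasmic reticulum chaperones moved in the same direction, and their counts were sensitive to scaling. In DMSO 3 of 25 were higher in T24 and 0 in UM-UC-3. Under the compound these counts were 1 (4%) and 8 (32%), beside 12.5% and 21.2% of all genes. With TMM factors they were 2 and 3, no clear lean to either line. HSPA5, the chaperone BiP, had 264 FPKM in T24 and 237 in UM-UC-3 in DMSO, and 267 and 925 under OICR-9429, a treated ratio of 3.46 (interval 3.42 to 3.50). HYOU1, a large chaperone of the same compartment, had 33.2 FPKM in T24 and 45.2 in UM-UC-3 in DMSO, and 26.2 and 106 under OICR-9429. Both stood apart only in treated UM-UC-3, which was above the other 3 libraries. ATF6, a sensor of misfolded protein, had 15.1 FPKM in T24 and 8.67 in UM-UC-3 in DMSO, and 13.7 and 28.1 under OICR-9429, a difference of -1.01 that was not called with TMM factors. PDIA3, a disulfide isomerase shared with the MHC list, went the other way, with 111 FPKM in T24 and 63.2 in UM-UC-3 in DMSO, and 65.8 and 21.4 under OICR-9429, a difference of 1.60 that lay near the threshold and had opened with TMM factors.

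Promoters of the stress lists are printed for a few genes that hold the motifs searched, CHAC1 as the member with the largest shift among the absent differences of its list, ASNS as a gene of amino acid supply and HSPA5 as the most abundant chaperone of its list. Capitals mark TGATGNAAN, the C/EBP-ATF response element bound by ATF4, in CHAC1 and ASNS, and CCAAT followed after 9 bases by CCACG, the endoplasmic reticulum stress element, in HSPA5. The first was found on either strand in 10 of 34 stress response genes with a window (29.4%), in 3.61% of all windows and in 2.62% of the 8676 genes compared here that had a window. The other was found in 7 of 22 endoplasmic reticulum genes (31.8%), in 0.0769% of all windows and in 0.184% of the compared genes with a window. It was chosen after the values were seen. CHAC1 is on the plus strand at chr15:40953221-40953520, ASNS on the minus strand at chr7:97872359-97872658 and HSPA5 on the minus strand at chr9:125241294-125241593.
CHAC1: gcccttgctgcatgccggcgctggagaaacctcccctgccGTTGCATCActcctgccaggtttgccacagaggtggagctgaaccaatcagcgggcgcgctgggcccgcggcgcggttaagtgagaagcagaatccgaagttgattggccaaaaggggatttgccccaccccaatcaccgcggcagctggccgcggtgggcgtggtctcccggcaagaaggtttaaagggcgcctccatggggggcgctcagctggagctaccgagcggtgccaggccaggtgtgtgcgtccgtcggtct
ASNS: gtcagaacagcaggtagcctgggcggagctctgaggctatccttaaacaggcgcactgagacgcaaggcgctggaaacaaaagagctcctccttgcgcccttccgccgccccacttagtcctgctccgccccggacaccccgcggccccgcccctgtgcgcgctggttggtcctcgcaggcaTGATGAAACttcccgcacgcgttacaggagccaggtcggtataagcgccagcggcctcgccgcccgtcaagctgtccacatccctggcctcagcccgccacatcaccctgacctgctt
HSPA5: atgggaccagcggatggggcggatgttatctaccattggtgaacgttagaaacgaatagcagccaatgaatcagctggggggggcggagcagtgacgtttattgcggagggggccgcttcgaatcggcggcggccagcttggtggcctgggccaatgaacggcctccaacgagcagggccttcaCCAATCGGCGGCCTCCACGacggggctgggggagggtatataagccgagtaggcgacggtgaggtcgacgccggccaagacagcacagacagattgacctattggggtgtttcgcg

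**Figure D3:**
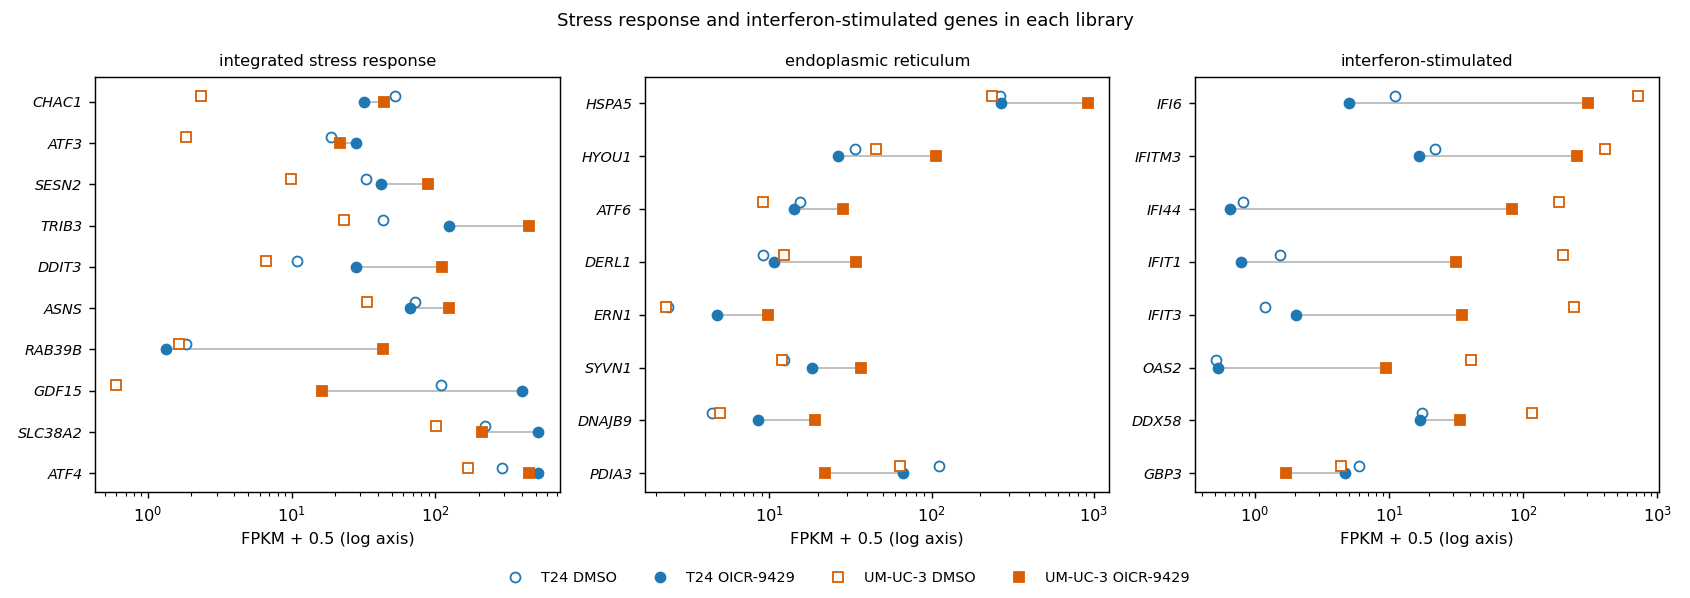
FPKM + 0.5 on a log axis for members of 3 lists in each library, with T24 as circles and UM-UC-3 as squares, DMSO open and OICR-9429 filled, and a grey line joining the treated pair. The open square of UM-UC-3 in DMSO is lowest for most stress response genes and highest for most interferon-stimulated genes, and treated UM-UC-3 is above treated T24 for DDIT3, TRIB3 and HSPA5 (HSPA5 at 925 against 267 FPKM).

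Epithelial junction genes kept their line difference through treatment. Of 13 members, 10 (76.9%) were higher in treated T24 and 1 in treated UM-UC-3, beside 12.5% and 21.2% of all genes. The counts were the same in DMSO, and 8 differences were kept. CLDN1, a tight junction claudin, was the most abundant, with 273 FPKM in T24 and 2.47 in UM-UC-3 in DMSO, and 269 and 11.6 under OICR-9429, and its shift of -2.05 made it smaller. JUP, which encodes plakoglobin of desmosomes and adherens junctions, had 52.1 FPKM in T24 and 0.230 in UM-UC-3 in DMSO, and 52.9 and 0.104 under OICR-9429, and SPINT2, a membrane inhibitor of serine proteases, 43.01 FPKM in T24 and 0 in UM-UC-3 in DMSO, and 38.2 and 0.0527 under OICR-9429. Both were below 1 FPKM in each UM-UC-3 library. PKP3, a plakophilin of desmosomes, was the exception in direction, with 0.366 FPKM in T24 and 5.42 in UM-UC-3 in DMSO, and 0.342 and 1.24 under OICR-9429, and it was absent with TMM factors. DSP, the desmoplakin that ties desmosomes to keratin, had 12.0 FPKM in T24 and 0.0632 in UM-UC-3 in DMSO, and 19.0 and 0.0339 under OICR-9429, and PKP2, another plakophilin, had 6.98 FPKM in treated T24 and 0 in both UM-UC-3 libraries. The averaged difference was 6.32 for JUP (SE 0.32, adjusted p = 0.0017 from limma), which met the FPKM minimum of that test only through the T24 libraries.

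The matrix and its receptors were also higher in T24. Of 14 laminins and collagens, 8 were higher in treated T24 and 2 in treated UM-UC-3, against 9 and 4 of 15 in DMSO. Of 10 integrins 6 were higher in treated T24 and 0 in treated UM-UC-3, against 8 and 4 of 13 in DMSO. Among all genes 12.5% were higher in treated T24 and 21.2% in treated UM-UC-3. The median log2 difference of the integrins was 1.38 in DMSO and 0.51 under the compound, and 4 differences were absent, 2 in each direction. COL18A1, a basement membrane collagen, had 95.6 FPKM in T24 and 3.10 in UM-UC-3 in DMSO, and 107 and 1.44 under OICR-9429, and its difference was larger under the compound, at 5.78. LAMB3, a laminin chain of epithelial basement membranes, had 121 FPKM in T24 and 3.52 in UM-UC-3 in DMSO, and 30.8 and 0.866 under OICR-9429. It was lower with treatment in both lines, and the difference was kept at 4.52. LAMA5, a laminin chain of mature basement membranes, had 74.0 FPKM in T24 and 3.95 in UM-UC-3 in DMSO, and 49.9 and 8.99 under OICR-9429, a smaller difference of 2.41, and LAMB1 37.9 FPKM in T24 and 14.3 in UM-UC-3 in DMSO, and 39.9 and 4.73 under OICR-9429, a larger one of 2.95. NID1, which links laminin to collagen IV, had 31.2 FPKM in T24 and 1.69 in UM-UC-3 in DMSO, and 54.8 and 0.169 under OICR-9429, and its difference widened from 3.86 to 6.37. ITGA6, a laminin receptor subunit, had 84.5 FPKM in T24 and 6.84 in UM-UC-3 in DMSO, and 42.2 and 2.192 under OICR-9429, and ITGA3, another such subunit, 200.3 FPKM in T24 and 72.6 in UM-UC-3 in DMSO, and 164 and 48.9 under OICR-9429. Among those higher in UM-UC-3, COL5A1 had no read in T24 and 4.69 FPKM in treated UM-UC-3, and COL6A2 had 1.80 FPKM in T24 and 17.9 in UM-UC-3 in DMSO, and 1.22 and 24.8 under OICR-9429. COL17A1, a hemidesmosome collagen, had 0.144 FPKM in T24 and 6.199 in UM-UC-3 in DMSO, and 0.204 and 0.242 under OICR-9429, so its difference was absent under the compound.

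Mesenchymal genes that marked UM-UC-3 in DMSO did so less under the compound. Of 21 members 10 were higher in UM-UC-3 in DMSO and 1 in T24, and of 22 under OICR-9429 6 (27.3%) were higher in each line, also with TMM factors. Of all genes, 21.2% were higher in treated UM-UC-3 and 12.5% in treated T24, against 13.5% and 14.9% in DMSO. VIM, the intermediate filament vimentin, had 40.4 FPKM in T24 and 183 in UM-UC-3 in DMSO, and 81.1 and 79.3 under OICR-9429, so the treated lines were level at 0.03. TGM2, a protein-crosslinking transglutaminase, had 22.7 FPKM in T24 and 183 in UM-UC-3 in DMSO, and 14.8 and 5.94 under OICR-9429. Its difference turned from -2.98 to 1.25, with the treated UM-UC-3 library 28.4-fold below its control. SPARC and TGFBI, secreted matrix proteins, had 4.11 and 3.20 FPKM in treated UM-UC-3, 33.2 and 37.2 in its DMSO library and at most 0.0532 in T24, and both differences were smaller.

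Other members had no called line difference in DMSO and a called difference under the compound. LOXL2, a collagen-crosslinking oxidase, had 27.5 FPKM in T24 and 26.7 in UM-UC-3 in DMSO, and 30.9 and 6.62 under OICR-9429, and CD109, a surface protein that binds TGF-beta, 26.7 FPKM in T24 and 18.3 in UM-UC-3 in DMSO, and 19.2 and 4.50 under OICR-9429. CD44, the hyaluronan receptor, is the most abundant gene of the basal list and not a member of this one. It had 77.7 FPKM in T24 and 95.2 in UM-UC-3 in DMSO, and 143 and 31.7 under OICR-9429. In each of these treated UM-UC-3 was the lowest of the 4 libraries, and the differences of 2.14, 1.98 and 2.16 had opened. SNAI2, a repressor of epithelial genes, kept its difference, with 0.0455 FPKM in T24 and 6.24 in UM-UC-3 in DMSO, and 0.149 and 5.80 under OICR-9429, as did the repressor ZEB1, with 3.27 FPKM in T24 and 17.3 in UM-UC-3 in DMSO, and 4.41 and 17.6 under OICR-9429.

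In the urokinase system and the matrix proteases, PLAU turned as TGM2 did. PLAU, the protease urokinase, had 76.8 FPKM in T24 and 265 in UM-UC-3 in DMSO, and 44.9 and 18.1 under OICR-9429, and its difference went from -1.78 to 1.29. PLAUR, its receptor, had 13.4 FPKM in T24 and 37.3 in UM-UC-3 in DMSO, and 6.004 and 7.73 under OICR-9429, and its difference was absent. TIMP1, an inhibitor of matrix proteases, had 77.7 FPKM in T24 and 44.95 in UM-UC-3 in DMSO, and 77.4 and 221 under OICR-9429. It had opened towards UM-UC-3, whose treated library was 4.88-fold above its control. MMP14, a membrane protease that activates MMP2, had 0.272 FPKM in T24 and 46.0 in UM-UC-3 in DMSO, and 0.451 and 26.2 under OICR-9429, and MMP2 itself had no read in T24, while UM-UC-3 had 11.3 FPKM in DMSO and 4.27 under the compound. Of the list 5 of 20 members (25%) were higher in treated T24 and 6 (30%) in treated UM-UC-3, beside 12.5% and 21.2% of all genes.

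Several abundant glycolysis enzymes had no called line difference in DMSO and were called under the compound, while the list as a whole kept a median near 0 (0.14 in DMSO and -0.07 under OICR-9429). Of 35 members 8 (22.9%) were higher in treated T24 and 8 in treated UM-UC-3, beside 12.5% and 21.2% of all genes. With TMM factors the treated counts were 10 and 7, and in DMSO they were 5 and 3 of 32. Of 35 differences 7 had opened, beside 8.71% of all genes. LDHA, the enzyme that makes lactate from pyruvate, had 277 FPKM in T24 and 204 in UM-UC-3 in DMSO, and 315 and 33.1 under OICR-9429. The treated ratio was 9.53 (interval 9.27 to 9.78), with treated UM-UC-3 below the other 3 libraries. PKM, pyruvate kinase, had 255 FPKM in T24 and 221 in UM-UC-3 in DMSO, and 259 and 75.9 under OICR-9429, and ENO1, enolase, 898 FPKM in T24 and 829 in UM-UC-3 in DMSO, and 722 and 278 under OICR-9429. GAPDH, whose reads can be shared with many pseudogenes, had 1052 FPKM in T24 and 908 in UM-UC-3 in DMSO, and 1586 and 444 under OICR-9429. Each of these 4 enzymes, of which PKM was chosen after its values were seen, had treated UM-UC-3 as the lowest library. The hypoxia-responsive genes of the list were not of 1 direction: ANGPTL4, a lipase inhibitor, had 22.0 FPKM in T24 and 19.95 in UM-UC-3 in DMSO, and 16.6 and 2.97 under OICR-9429, HK2, a hexokinase, 6.54 FPKM in T24 and 22.7 in UM-UC-3 in DMSO, and 5.25 and 42.95 under OICR-9429, and CA12, a carbonic anhydrase, 0.0142 FPKM in T24 and 47.1 in UM-UC-3 in DMSO, and 0.0140 and 13.9 under OICR-9429. VEGFA, the endothelial growth factor, had 8.53 FPKM in T24 and 3.98 in UM-UC-3 in DMSO, and 19.7 and 34.3 under OICR-9429, and its difference in DMSO was absent under the compound.

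Lysosomal genes tilted to T24 under treatment. Of 44 members 14 (31.8%) were higher in treated T24 and 5 (11.4%) in treated UM-UC-3, beside 12.5% and 21.2% of all genes. With TMM factors the counts were 19 and 3, and in DMSO they were 9 and 3 of 44. TPP1, a tripeptidyl peptidase, had 29.7 FPKM in T24 and 18.0 in UM-UC-3 in DMSO, and 157 and 43.8 under OICR-9429. CTSD, an aspartic protease, had 11.9 FPKM in T24 and 19.4 in UM-UC-3 in DMSO, and 78.4 and 31.2 under OICR-9429. Both differences opened, with treated T24 as the highest library. CTSZ, a cysteine protease, kept to T24 with 42.0 FPKM in T24 and 0.191 in UM-UC-3 in DMSO, and 27.1 and 0.504 under OICR-9429, a difference that was smaller as deposited and kept with TMM factors. WIPI1, an autophagy protein that binds membrane lipids, had 3.20 FPKM in T24 and 1.36 in UM-UC-3 in DMSO, and 5.56 and 14.3 under OICR-9429 and opened towards UM-UC-3.

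Cholesterol and fatty acid genes that were higher in T24 in DMSO came closer to level. In DMSO 16 of 32 members were higher in T24 and 1 in UM-UC-3. Under the compound the counts were 6 (18.8%) and 1 (3.1%), beside 12.5% and 21.2% of all genes, or 10 and 1 with TMM factors. The median log2 difference was 0.97 in DMSO and 0.22 with treatment. ACLY, which makes the acetyl-CoA that feeds both pathways, had 139 FPKM in T24 and 64.1 in UM-UC-3 in DMSO, and 131 and 40.1 under OICR-9429, differences of 1.11 and 1.69. STARD4, a carrier of cholesterol between membranes, had 42.9 FPKM in T24 and 9.16 in UM-UC-3 in DMSO, and 43.4 and 19.8 under OICR-9429. HSD17B7, an enzyme of cholesterol synthesis, had 10.6 FPKM in T24 and 1.86 in UM-UC-3 in DMSO, and 6.85 and 2.89 under OICR-9429. Both of the latter differences were smaller under the compound as deposited and kept with TMM factors.

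NRF2 targets, the genes of glutathione and of the defence against oxidants, were higher in T24 for 10 of 34 members and in UM-UC-3 for 5, close to the 9 and 4 of 32 in DMSO. The treated shares were 29.4% and 14.7%, beside 12.5% and 21.2% of all genes. TKT, the transketolase of the pentose phosphate pathway, had 119 FPKM in T24 and 35.5 in UM-UC-3 in DMSO, and 252 and 31.3 under OICR-9429, and NQO1, a quinone reductase, 127 FPKM in T24 and 57.1 in UM-UC-3 in DMSO, and 353 and 74.4 under OICR-9429. Both differences were larger, with treated T24 as the highest library. OSGIN1, an oxidative stress gene, had 2.86 FPKM in T24 and 3.31 in UM-UC-3 in DMSO, and 43.9 and 14.9 under OICR-9429, and UGDH, which makes UDP-glucuronic acid, 13.9 FPKM in T24 and 7.83 in UM-UC-3 in DMSO, and 51.4 and 9.24 under OICR-9429. Both had opened. FTH1, the heavy chain of ferritin and a gene with many pseudogenes that may share its reads, stayed higher in UM-UC-3, with 50.2 FPKM in T24 and 154 in UM-UC-3 in DMSO, and 209 and 792 under OICR-9429.

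Heat shock proteins included a gene that turned. HSPA8, the constitutive cytosolic chaperone, whose reads may be shared with its pseudogenes, had 210.3 FPKM in T24 and 523 in UM-UC-3 in DMSO, and 620.1 and 279.8 under OICR-9429. It was 2.94-fold higher with treatment in T24 and 1.87-fold lower in UM-UC-3, so the difference went from -1.31 to 1.15. HSPA9, the mitochondrial chaperone, had 123 FPKM in T24 and 297 in UM-UC-3 in DMSO, and 216 and 536 under OICR-9429, and HSPB1, a small heat shock protein, 98.9 FPKM in T24 and 305 in UM-UC-3 in DMSO, and 44.4 and 122 under OICR-9429. Both were kept higher in UM-UC-3. Over the list 3 of 21 members were higher in treated T24 and 4 in treated UM-UC-3, or 5 and 3 with TMM factors, close to the 12.5% and 21.2% of all genes.

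**Figure D4:**
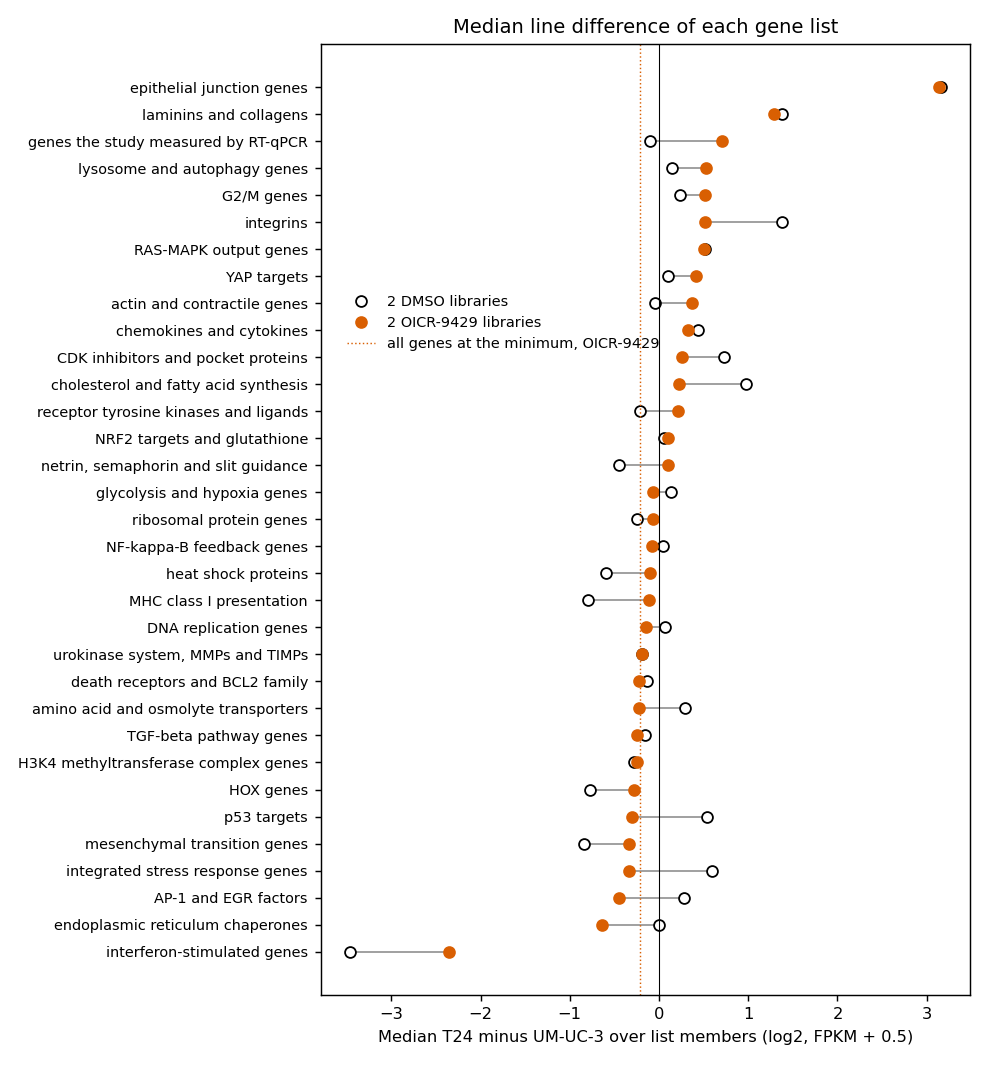
Median log2 difference between the lines (T24 minus UM-UC-3, FPKM + 0.5) over each list with at least 10 members at the minimum, in DMSO (open) and under OICR-9429 (filled), with the dotted line at the treated median of all genes (-0.22). The interferon-stimulated list lies farthest left in both conditions (-3.46 and -2.35), the epithelial junction list farthest right (3.16 and 3.14), and the stress response list crosses 0; with TMM factors the DNA replication and heat shock lists had more members higher in T24 than in UM-UC-3, the reverse of the deposited scaling.

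The targets of YAP, a coactivator that responds to cell shape, had 8 of 30 members higher in T24 and 4 in UM-UC-3 in DMSO. Under the compound the counts were 10 (34.5%) and 2 (6.90%) of 29, beside 12.5% and 21.2% of all genes, so calls leaned to T24. Against that direction, CYR61 and CTGF, secreted matricellular proteins, had 917 FPKM in T24 and 127 in UM-UC-3 in DMSO, and 73.1 and 52.0 under OICR-9429 for the former and 265 FPKM in T24 and 42.8 in UM-UC-3 in DMSO, and 52.8 and 26.5 under OICR-9429 for the latter. Both lines were lower with treatment and T24 more so, and neither difference was called under the compound (0.49 and 0.98), although that of CTGF was called with TMM factors. NUAK2, a kinase, kept its difference with 54.7 FPKM in T24 and 4.68 in UM-UC-3 in DMSO, and 15.9 and 0.727 under OICR-9429. MYOF, a membrane repair protein, opened with 66.7 FPKM in T24 and 73.1 in UM-UC-3 in DMSO, and 82.5 and 26.6 under OICR-9429.

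In the TGF-beta pathway, which includes the BMP-responsive ID genes, the calls moved towards T24 but the median did not. The median log2 difference was -0.15 in DMSO and -0.25 under the compound. In DMSO 4 of 28 were higher in T24 and 10 in UM-UC-3, beside 14.9% and 13.5% of all genes. Under the compound the counts were 9 (32.1%) and 6 (21.4%) of 28, beside 12.5% and 21.2% of all genes. ID4, an inhibitor of basic helix-loop-helix factors, had 0.724 FPKM in T24 and 0.862 in UM-UC-3 in DMSO, and 9.22 and 0.5847 under OICR-9429, and its difference of 3.16 had opened. ID3 had 11.5 FPKM in T24 and 148 in UM-UC-3 in DMSO, and 26.8 and 86.5 under OICR-9429, a smaller difference. Treated T24 was above its DMSO control for ID3 and ID4. SMAD3, which carries the TGF-beta signal to the nucleus, turned with 30.0 FPKM in T24 and 63.1 in UM-UC-3 in DMSO, and 39.6 and 15.4 under OICR-9429. INHBA, the activin A subunit, kept its difference, with 8.07 FPKM in T24 and 0.00854 in UM-UC-3 in DMSO, and 10.8 and 0 under OICR-9429.

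Immediate early and AP-1 factors had 4 members of 22 (18.2%) higher in each treated line, and 5 and 4 in T24 and UM-UC-3 with TMM factors. The shares of all genes were 12.5% towards T24 and 21.2% towards UM-UC-3. In DMSO 5 of 20 members were higher in T24 and 3 in UM-UC-3. EGR1, a growth factor-induced zinc finger protein, had 71.3 FPKM in T24 and 2.85 in UM-UC-3 in DMSO, and 30.3 and 20.4 under OICR-9429. It was lower with treatment in T24 and higher in UM-UC-3, and the difference of 4.42 was absent under the compound. KLF2, a Krüppel-like factor, had 11.02 FPKM in T24 and 13.8 in UM-UC-3 in DMSO, and 7.97 and 46.7 under OICR-9429 and opened towards UM-UC-3, and MYC had 56.1 FPKM in T24 and 109 in UM-UC-3 in DMSO, and 60.6 and 158 under OICR-9429, -0.96 and -1.38 on the log2 scale. In promoter windows, the AP-1 motif TGANTCA, searched on both strands, was found in 33 of the 169 genes with a window (19.5%) among those whose higher level in UM-UC-3 was absent under the compound, in 7 of 241 with a window (2.90%) among those whose higher level in T24 was absent, and in 6.67% of the 8676 genes with a window. These shares are descriptions of genes chosen by their values.

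Across all genes, those not called between the lines in DMSO and called with a wide difference under the compound were led in T24 by IGFN1, a muscle protein with immunoglobulin and fibronectin domains, with 0.469 FPKM in T24 and 0.0146 in UM-UC-3 in DMSO, and 16.8 and 0.00566 under OICR-9429, and by SLC5A3, the transporter of the osmolyte myo-inositol, with 9.67 FPKM in T24 and 5.41 in UM-UC-3 in DMSO, and 106 and 6.72 under OICR-9429. In both treated T24 was the highest library, although IGFN1 was also higher in T24 in DMSO, at levels under the minimum. HIST1H2BC, a histone gene whose reads are uncertain among near-identical copies, had 1.08 FPKM in T24 and 2.38 in UM-UC-3 in DMSO, and 10.8 and 0.945 under OICR-9429, and AC099552.4, a noncoding transcript, 0.0466 FPKM in T24 and 0.0476 in UM-UC-3 in DMSO, and 7.70 and 0.0461 under OICR-9429. In UM-UC-3 they were led, after RAB39B, by RPLP0P2, a pseudogene that may carry reads of RPLP0, with 0 FPKM in T24 and 0.172 in UM-UC-3 in DMSO, and 0.0523 and 25.8 under OICR-9429. The antisense transcripts TSPEAR-AS1 and TSPEAR-AS2, which cannot be told apart from transcription of the opposite strand since the counting is not stated to use strand, had 13.7 and 15.6 FPKM in treated UM-UC-3 and at most 0.692 in the other libraries.

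Differences already present that widened included STC1, a secreted glycoprotein hormone, with 10.8 FPKM in T24 and 2.76 in UM-UC-3 in DMSO, and 25.1 and 0.322 under OICR-9429, and PAX2, a relative of PAX8, with 9.93 FPKM in T24 and 1.40 in UM-UC-3 in DMSO, and 44.3 and 1.30 under OICR-9429. TRIML2, a member of the tripartite motif family, had 9.31 FPKM in T24 and 4.39 in UM-UC-3 in DMSO, and 20.5 and 0.697 under OICR-9429, and KCNJ16, a potassium channel, 4.50 FPKM in T24 and 0.0671 in UM-UC-3 in DMSO, and 21.3 and 0.0108 under OICR-9429. In all 4 treated T24 was the highest library. Towards UM-UC-3, MFSD2A, a lipid transporter, had 0.398 FPKM in T24 and 4.45 in UM-UC-3 in DMSO, and 0.128 and 41.3 under OICR-9429, the netrin receptor UNC5B 0.00506 FPKM in T24 and 1.05 in UM-UC-3 in DMSO, and 0.513 and 32.9 under OICR-9429, and CCND2, a D-type cyclin, 0 FPKM in T24 and 1.98 in UM-UC-3 in DMSO, and 0 and 18.4 under OICR-9429 (no read in T24). SHC2, a signalling adaptor, had 0.00839 FPKM in T24 and 1.12 in UM-UC-3 in DMSO, and 0 and 11.2 under OICR-9429. In these treated UM-UC-3 was the highest library.

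Of the 526 absent differences that were higher in T24 in DMSO, 257 had T24 at least 2-fold lower with treatment, 177 had UM-UC-3 at least 2-fold higher, and in 108 neither line moved that far. Of the 96 that were smaller, T24 was at least 2-fold lower in 61. PXDN, a matrix peroxidase, had 27.4 FPKM in T24 and 0.0126 in UM-UC-3 in DMSO, and 1.21 and 0.00304 under OICR-9429, and TINAGL1, a basement membrane protein, 55.5 FPKM in T24 and 0.00671 in UM-UC-3 in DMSO, and 6.31 and 0 under OICR-9429. TMEM40, a membrane protein, had 32.5 FPKM in T24 and 0.0299 in UM-UC-3 in DMSO, and 2.84 and 0.00962 under OICR-9429, and PTX3, a soluble pattern recognition protein, 13.6 FPKM in T24 and 0 in UM-UC-3 in DMSO, and 2.42 and 0.230 under OICR-9429. Each remained higher in T24. EDN1, the vasoconstrictor endothelin 1, had 19.2 FPKM in T24 and 0.0174 in UM-UC-3 in DMSO, and 0.252 and 0 under OICR-9429. Treated T24 kept 15 reads of EDN1 and treated UM-UC-3 none, which bounds the ratio at no less than 4.97. OSCAR, a collagen receptor, had 9.48 FPKM in T24 and 0.391 in UM-UC-3 in DMSO, and 8.24 and 9.27 under OICR-9429, and here it was the treated UM-UC-3 value that stood at the level of T24. On the UM-UC-3 side, ADAM12, a metalloprotease, had 0.264 FPKM in T24 and 7.41 in UM-UC-3 in DMSO, and 0.660 and 0.570 under OICR-9429, FIBCD1, a chitin-binding receptor, 0.289 FPKM in T24 and 22.4 in UM-UC-3 in DMSO, and 8.32 and 14.2 under OICR-9429, and ADGRG1, an adhesion receptor, 0.388 FPKM in T24 and 9.65 in UM-UC-3 in DMSO, and 5.92 and 3.64 under OICR-9429. BDKRB1, a kinin receptor, had no read in T24, while UM-UC-3 had 13.6 FPKM in DMSO and 1.91 under the compound.

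Besides TGM2, PLAU, SMAD3, SESN2 and HSPA8, the differences that turned included PTPRJ, a receptor tyrosine phosphatase, with 2.73 FPKM in T24 and 9.93 in UM-UC-3 in DMSO, and 17.1 and 4.87 under OICR-9429, and PCDHGC3, a protocadherin that shares exons with its neighbours, with 3.83 FPKM in T24 and 8.58 in UM-UC-3 in DMSO, and 18.1 and 3.66 under OICR-9429. TDRKH, a Tudor-domain protein, turned towards UM-UC-3 with 8.91 FPKM in T24 and 1.81 in UM-UC-3 in DMSO, and 4.78 and 12.5 under OICR-9429. The long noncoding RNA OLMALINC had 25.7 FPKM in T24 and 6.29 in UM-UC-3 in DMSO, and 5.79 and 12.5 under OICR-9429, which was absent rather than turned with TMM factors. RP11-284F21.7 and RP11-284F21.10, neighbouring noncoding transcripts by their names, had 14.8 and 26.5 FPKM in T24 in DMSO and 4.05 and 8.37 with treatment, against 1.26 and 1.30, then 12.0 and 21.7, in UM-UC-3.

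**Figure D5:**
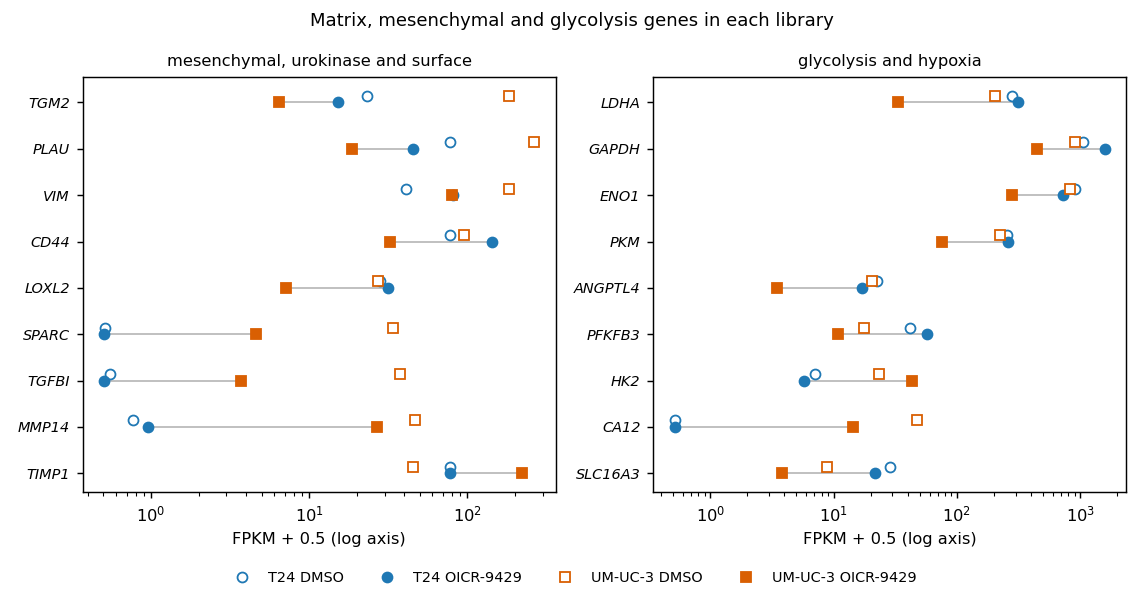
FPKM + 0.5 on a log axis of mesenchymal, urokinase and surface genes (left) and glycolysis and hypoxia genes (right) in each library, T24 as circles and UM-UC-3 as squares, DMSO open and OICR-9429 filled. The filled square of treated UM-UC-3 lies left of the other 3 symbols for TGM2, PLAU, LOXL2, CD44, LDHA, ENO1 and PKM (LDHA at 33.1 FPKM against at least 204 in the others).

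Genes of positional identity differed in both directions in both conditions. Of 20 HOX genes, which record a cell's place along the body axis, 7 (35%) were higher in treated T24 and 9 (45%) in treated UM-UC-3, beside 12.5% and 21.2% of all genes. In DMSO the counts were 6 and 8 of 22, and 9 differences were kept. HOXC9 had 6.75 FPKM in T24 and 0.0211 in UM-UC-3 in DMSO, and 7.72 and 0 under OICR-9429, while its cluster neighbours HOXC4 and HOXC8 had 3.72 and 3.48 FPKM in treated UM-UC-3 and 0.05004 and 0.144 in treated T24. HOXB9 had 1.96 FPKM in T24 and 8.79 in UM-UC-3 in DMSO, and 3.59 and 57.7 under OICR-9429, a larger difference. All 4 cancer-testis genes at the minimum, germline genes silent in most adult tissue, were higher in UM-UC-3 in both conditions. MAGEA4 had no read in T24, while UM-UC-3 had 41.5 FPKM in DMSO and 30.1 under the compound, although reads of the MAGEA family may be shared among its copies.

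Of 38 receptor tyrosine kinases and ligands, 14 (36.8%) were higher in treated T24 and 9 (23.7%) in treated UM-UC-3, beside 12.5% and 21.2% of all genes. In DMSO the counts were 12 and 14 of 39. EGFR, the epidermal growth factor receptor, had 49.0 FPKM in T24 and 13.2 in UM-UC-3 in DMSO, and 55.2 and 8.30 under OICR-9429, kept as deposited and larger with TMM factors. EPHA2, an ephrin receptor, had 169 FPKM in T24 and 105 in UM-UC-3 in DMSO, and 128 and 45.3 under OICR-9429, a difference near the threshold that had opened with TMM factors. PDGFB, a platelet-derived growth factor, had 35.1 FPKM in T24 and 0.0660 in UM-UC-3 in DMSO, and 12.6 and 0.0547 under OICR-9429, a smaller difference. DDR2, a collagen receptor, was larger towards UM-UC-3, with 0.119 FPKM in T24 and 2.41 in UM-UC-3 in DMSO, and 0.191 and 10.9 under OICR-9429. Among 20 chemokines and cytokines, TNF, an inflammatory cytokine, had 8.56 FPKM in T24 and 0.190 in UM-UC-3 in DMSO, and 20.9 and 0.0613 under OICR-9429 and a larger difference, CCL5 0.0458 FPKM in T24 and 40.3 in UM-UC-3 in DMSO, and 0.180 and 20.4 under OICR-9429 and a smaller one. CCL2, which attracts monocytes, had no read in T24, while UM-UC-3 had 32.0 FPKM in DMSO and 1.54 under the compound.

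Cell cycle genes gave few calls towards UM-UC-3 between the treated lines. Of 51 G2/M genes 8 were higher in treated T24 and 4 in treated UM-UC-3 (13 and 1 with TMM factors), or 15.7% and 7.84% beside 12.5% and 21.2% of all genes. The median log2 difference of that list was 0.52, beside -0.22 over all genes. Of 47 DNA replication genes 4 (8.51%) were higher in treated T24 and 6 (12.8%) in treated UM-UC-3, both below the shares of all genes. With TMM factors the counts were 9 and 3, which reverses the order. A list of 11 genes of the cell cycle, DNA repair and apoptosis was taken from the RT-qPCR panel. At the minimum in a treated library were 10 of them, and 2 were called, both higher in T24 (3 with TMM factors). CCNB1, the mitotic cyclin, had 128 FPKM in T24 and 76.2 in UM-UC-3 in DMSO, and 10.6 and 3.52 under OICR-9429, a difference near the threshold. MCM2, a subunit of the replicative helicase, had 38.7 FPKM in T24 and 64.5 in UM-UC-3 in DMSO, and 11.8 and 5.40 under OICR-9429, and its difference of 1.06 had opened. CDK1, the mitotic kinase, had 57.9 FPKM in T24 and 36.5 in UM-UC-3 in DMSO, and 2.72 and 1.65 under OICR-9429. AURKA had 64.4 and 62.1 FPKM in DMSO, and 6.21 and 5.55 under OICR-9429, in the same order of lines. PLK1 had 36.7 and 39.3, then 3.19 and 1.76, and FOXM1 48.9 and 63.6, then 5.20 and 2.98. All 4 were lower with treatment in both lines, so the treated libraries were compared at low levels. CCNA2, E2F1, BIRC5 and XRCC2 had treated log2 differences of 0.83, 0.07, -0.56 and 0.72. None of these was called, except CCNA2 with TMM factors. CCNE2, with 0.558 FPKM in treated T24 and 0.678 in treated UM-UC-3, was under the minimum and did not enter the comparison. CDKN2A, a CDK inhibitor, kept its difference, with 22.9 FPKM in T24 and 0 in UM-UC-3 in DMSO, and 11.2 and 0 under OICR-9429.

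On the deposited scale, RNA of the compound's target was level between the treated libraries. Its log2 difference was -0.01, beside a median of -0.22 over all genes. TMM factors multiply treated T24 by 1.09 and treated UM-UC-3 by 0.927, which sets T24 higher. WDR5, the scaffold of the methyltransferase complexes, had 29.7 FPKM in treated T24 and 29.8 in treated UM-UC-3 (intervals 28.6 to 30.7 and 28.8 to 30.8, for counting error only), against 33.7 and 44.4 in the DMSO libraries. KMT2A, which encodes MLL1, had 11.6 FPKM in treated T24 and 15.6 in treated UM-UC-3, a log2 difference of -0.41 beside -0.45 in DMSO. Among 18 subunit and partner genes of the H3K4 methyltransferases, 0 were higher in treated T24 and 2 (11.1%) in treated UM-UC-3, 1 and 1 with TMM factors. These shares lie below the 12.5% and 21.2% of all genes. Those called were MEN1, the scaffold menin, which was not called with TMM factors, with 19.6 FPKM in T24 and 24.01 in UM-UC-3 in DMSO, and 11.2 and 24.2 under OICR-9429, and PSIP1, its chromatin tether, with 24.5 FPKM in T24 and 40.2 in UM-UC-3 in DMSO, and 10.8 and 28.8 under OICR-9429. CD274, which encodes the checkpoint ligand PD-L1, had 1.38 FPKM in T24 and 1.34 in UM-UC-3 in DMSO, and 0.0664 and 0.792 under OICR-9429, and with both treated values under 1 FPKM, it did not enter the comparison.

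By gene type, every other type with at least 100 genes tilted more to UM-UC-3 than protein-coding genes did, but processed pseudogenes lay near the latter. The tilt was thus not particular to lincRNA and antisense genes. The shares higher in treated UM-UC-3 and T24 were 42.9% and 23.8% of snRNA genes, and 40.8% and 21.6% of miRNA genes. Transcribed unprocessed pseudogenes had 35.2% and 11.3%, other unprocessed ones 37.7% and 23.0%, and sense intronic genes 29.9% and 10.3%. Of 471 processed pseudogenes 19.7% were higher in treated UM-UC-3 and 12.3% in treated T24, with a median log2 difference of -0.09 beside -0.17 for protein-coding genes. Of 434 lincRNA genes at the minimum 44.2% were higher in treated UM-UC-3 and 15.4% in treated T24, of 529 antisense genes 38.2% and 12.3%, and of 10704 protein-coding genes 17.9% and 11.9%. The median log2 difference of the lincRNA genes was -0.78 under OICR-9429 and -0.17 in DMSO. Among the 376 genes with at least 100 FPKM in a treated library, 65 were higher in T24 and 55 in UM-UC-3. By chromosome, the protein-coding medians were highest on chromosomes 4 (0.17) and 18 (0.13) and lowest on chromosomes 10 (-0.52) and 8 (-0.49), and in DMSO those chromosomes stood at 0.45, 0.39, -0.35 and -0.25.

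The line difference averaged over both conditions was the only one the design could test, in limma with treatment as a covariate and 1 residual degree of freedom. Of 12584 genes with at least 1 FPKM in at least 2 libraries, 970 were higher in T24 and 1098 in UM-UC-3 at a Benjamini-Hochberg adjusted p under 0.05, and with TMM factors 1436 and 1258, which puts T24 ahead. The 2 libraries of 1 line were enough to meet that minimum, as for JUP in T24 and IFI44 in UM-UC-3. Genes could thus enter through the line where they were high, and the counts rest on that minimum. With no covariate for treatment the counts were 450 and 466, and with no FPKM minimum none passed, while 4972 genes had an unadjusted p under 0.05. Nothing says whether the libraries came from separate cultures, so p-values cover only the spread between these libraries. The test measures the mean difference against its change under the compound, and the change itself, with no residual degree of freedom, was not tested.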

How the data were processed

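Total RNA of T24 and UM-UC-3 cells, in DMSO or in 140 µM OICR-9429 for 48 h, was sequenced as 1 library for each line and condition (4 libraries). The authors deposited FPKM for 31319 Ensembl genes, which scale each gene's reads to its length and to the library total. Build hg19 and the tools HISAT2 2.1.0, bcl2fastq 2.19.1 and HTSeq 0.6.1 are credited to the submitters' processing notes, and whether counting used strand is not given in the sources used here. Multiplying FPKM by the merged exon length of GENCODE release 29 and by the library total gave whole reads (within a relative 1e-06) in all 4 libraries for 29029 genes (92.7%), and 240 IDs were not in that annotation. Those reads served only for counting intervals (95%, exact), bounds with a floor of 3 reads per library, and depth. The tested genes had medians of 700.0 to 820.0 reads a library.

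Line differences were taken from log2(FPKM + 0.5), T24 minus UM-UC-3, and folds within a line are on the same scale. A call needed 1 FPKM in at least 1 library of the pair and a 2-fold difference, and a shift 2-fold. The averaged line difference was tested in limma 3.58.1 (R 4.3.3) on log2(FPKM + 0.5), with the trend option and Benjamini-Hochberg adjustment, with 1 residual degree of freedom, whereas the interaction of line and treatment left 0. The scripts ran on Python 3.11.15 with numpy 2.4.6, pandas 2.3.3, scipy 1.17.1 and matplotlib 3.10.9, and were tested on simulated data. Alternatives covered scaling, pseudocount, minimum, fold, shift, reads and the treatment term. The study's own tests compared conditions within a line and were not used.

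The comparison and its 42 gene lists (1234 of 1294 entries matched) were chosen with earlier results of these data known. Genes were named by rule: the 8 largest treated differences in each direction and the 5 largest shifts of each class and direction, among genes with at least 100 reads in the higher library (5 FPKM where reads could not be worked back, the DMSO library for absent differences), and, within every list described, the 2 members of highest level, of largest difference and of largest shift. The RT-qPCR genes, WDR5, KMT2A and CD274 were named besides. Not every gene of that rule is reported here. Members outside it were chosen after their values were seen: ASNS, ATF3, ATF4, CCL2, COL5A1, COL6A2, CTGF, CTSD, CYR61, DDIT3, DDX58, DSP, GBP3, HK2, HOXC4, HOXC8, MX2, NLRC5, PDIA3, PKM, PKP2, PLAUR, VEGFA, VIM and ZEB1. Promoter windows (RefSeq, GRCh38.p14) were matched by symbol for 8676 of 13237 symbols.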

Additional observations from a re-analysis of the deposited data

Results flagged for a closer look

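In 78 of 14546 genes RNA was at least 2-fold higher with the compound in T24 and at least 2-fold lower in UM-UC-3 (22 genes), or the reverse (56 genes). Among the named genes 8 did so, and in none was the difference between the lines' responses tested, since each response rests on 1 library a condition. EGR1 was lower in T24 (log2 change -1.22) and higher in UM-UC-3 (2.64), a shift of -3.86. The noncoding transcripts RP11-284F21.7 and RP11-284F21.10 had shifts of -4.58 and -5.24, also lower in T24 and higher in UM-UC-3. The other 5 were higher in T24 and lower in UM-UC-3. ADGRG1 had a shift of 4.15, STC1 of 3.17, TRIML2 of 3.13, PCDHGC3 of 3.23 and RP1-68D18.4 of 3.37. RP1-68D18.4 had 1.77 FPKM in T24 and 4.47 in UM-UC-3 in DMSO, and 7.38 and 1.17 under OICR-9429, and its difference turned.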

How the results depend on the processing

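With 1 library a side, no difference between the treated lines has a replicate error, and no library could be left out. Replicates could not be paired, because each line and condition had 1 library and the labels carry no replicate number. Only the averaged line difference set the lines against each other within each condition, through the treatment term in limma. Treated calls stayed more numerous towards UM-UC-3 with either scaling, by little. Under TMM factors 967 of the opened and 1487 of the kept differences were shared with the deposited scale. TMM factors or the median of ratios left the total of every class within 1.5 times, but with the median of ratios opened differences towards T24 numbered 529 in place of 315 and those towards UM-UC-3 610 in place of 952. Of genes whose class changed with scaling, those not named beside their values were HK2 (kept with either scaling) and, with the median of ratios only, IFI44 and LINC01029 (smaller), TRIML2 (opened), MYC (kept) and VEGFA (not called in DMSO). Depth limits low genes, since 1 to 3 reads set many ratios.

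Treated calls higher in T24 and in UM-UC-3 numbered 905 and 1487 at 5 FPKM, 554 and 822 at 4-fold, and 2755 and 4649 at 1.5-fold. At 5 FPKM there were 807 kept, 81 larger, 90 smaller, 419 absent, 685 opened and 18 turned differences. At 4-fold there were 582 kept, 84 larger, 112 smaller, 395 absent, 430 opened and 3 turned. At 1.5-fold 3111 were kept, 319 larger and 285 turned. Larger differences numbered 318 with a pseudocount of 0.1 FPKM and 123 with 1 FPKM, and turned ones 31 with 1 FPKM and 87 without a minimum. Among genes with 100 reads worked back 511 were absent, 783 opened and 21 turned. A shift of 1.5-fold gave 402 larger, 435 smaller and 1914 opened differences, and a shift of 4-fold gave 22 larger, 39 smaller, 190 absent and 232 opened. These follow from the width of each rule. Of the limma calls, 0 and 0 were left without an FPKM minimum (4972 genes at an unadjusted p under 0.05, no other tool run) and 450 and 466 without the treatment term. The other 55 values of these counts stayed within 1.5 times. No named gene called under the compound changed sign. Of 241 named values, 154 were counted as moved beyond their counting interval under TMM factors and 98 with a pseudocount of 0.1 FPKM. These counts include genes without such an interval (0 reads in a treated library, or reads not worked back), for which any change counted as moved.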

Other observations

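Of 24 p53 targets 2 were higher in treated T24 and 5 in treated UM-UC-3, against 8 and 3 in DMSO, and 3 and 3 under the compound with TMM factors. The treated shares lie near the 12.5% and 21.2% of all genes. Of 77 ribosomal protein genes, whose reads may be shared with pseudogenes, 4 were higher in treated UM-UC-3 and 0 in treated T24, below those shares. Of 21 guidance genes of axons and vessels, 8 were higher in each treated line, and 8 of their differences were kept. SEMA3C, a secreted semaphorin, had 96.7 FPKM in T24 and 19.7 in UM-UC-3 in DMSO, and 123 and 6.59 under OICR-9429. CD70, a ligand of activated lymphocytes, had 49.4 FPKM in T24 and 20.7 in UM-UC-3 in DMSO, and 29.9 and 6.40 under OICR-9429 and was kept as deposited and larger with TMM factors.

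By promoter sequence, TGACNNNGC, the core of the antioxidant response element searched on both strands, was found in 11 of 31 NRF2 targets (35.5%). It was found in 19.5% of the 8676 genes compared here that had a window, and in 13.3% of all windows. Among the other lists searched its share ran from 15.6% (glycolysis and hypoxia) to 35.3% (integrated stress response), so it was not particular to NRF2 targets. TTTNNCGC, the E2F motif, was found in 26 of 46 DNA replication genes (56.5%). It was found in 13.3% of the compared genes with a window and in 6.89% of all windows. TTTC followed after 2 bases by TTTC was found in 11 of 75 genes with a window whose higher level in UM-UC-3 was smaller under the compound (14.7%) and in 22 of 169 with a window whose higher level there was absent (13.0%), beside 3.88% of the genes with a window. These are descriptions of letters in genes chosen by their values.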
